A study of Mus musculus with 4 samples.

Results

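Germ cells protect and regulate their RNA with a set of proteins that most other cells lack. PIWI proteins carry piRNAs, short RNAs that silence transposons. Tudor domain proteins gather the PIWI proteins into granules, and enzymes and helicases make piRNAs, trim them and methylate their ends. A further group of RNA-binding proteins, DAZL among them, sets when germ cell messages are translated, and several of its members are strongly expressed from the entry into meiosis onward. Of 39 genes chosen by name, 32 were found on the array by RefSeq transcript accession, among 25631 transcripts and 17277 named genes. They are described here in 5 groups by role and called germ cell RNA genes for short. The list also holds genes that other cells use, such as Tdrd3 and Pum2, and a group of other germ cell genes. Piwil4, Tdrd5, Tdrd9, Tdrkh, Pld6, Gtsf1 and Gcna found no matching transcript and were not analysed here.

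The comparison was between 3 arrays labelled Dmrt1 KO and Cre-positive and 1 array labelled control and Cre-negative, all from the DHH-cre line and all from testes of male mice at postnatal day 9. The protein of Dmrt1 is a transcription factor with a DM domain, found in germ cells as well as in Sertoli cells. Dhh is a gene of Sertoli cells, the somatic cells that surround the germ cells, so the germ cell genes read here belong mostly to cells other than those in which the driver acts. The labels do not say whether an array holds 1 animal or a pool, nor whether the KO arrays are separate animals, so any p-value rests on the spread among these arrays, possibly a technical one. In whole testis RNA, fewer germ cells and less RNA per germ cell cannot be told apart.

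Array medians lay between an intensity of 1005 and 1011. Dmrt1 itself had log2 intensities of 13.23, 13.38 and 13.66 in the KO arrays and 14.16 in the control (difference -0.73 ± 0.27 SE, limma adjusted p = 0.586), and the position of its probes relative to the deleted part is not known here. Marker lists of testis cell types were read in the same comparison. Among the Sertoli cell markers, Cldn11 and Gata1 were called lower (differences of -1.72 and -1.55, limma adjusted p = 0.0211 and 0.0248). Of the 11 markers 0 were called higher and 9 did not pass, and limma called 0.655% of all transcripts. Probes have no shared scale, so levels are compared between arrays and never between genes.

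No germ cell RNA gene passed the test. limma called 0 of the 32 genes at an adjusted p under 0.05, against 0.655% of all transcripts, and 1 of 32, Elavl2, had an unadjusted p under 0.05, against 6.42% of all transcripts. The median difference, KO minus control, was 0.12 on the log2 scale over the 32 genes and 0.0043 over all transcripts. It was 0.18 in KO replicate 1, -0.0046 in KO replicate 2 and 0.05 in KO replicate 3, each set against the same control. The differences ran from -0.67 for Elavl2 to 0.39 for Tktl1, and 22 of 32 genes (68.8%) lay above 0, against 50.6% of all transcripts. In 31 of the 32 genes the difference was within 0.5 of 0, against 87.7% of all transcripts.

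The intervals give a range for the difference of each gene, without adjustment for the number of transcripts. They do not give the size of change at which limma would call a gene. Among the Sertoli cell markers, Fshr differed by -1.12 and was not called (limma adjusted p = 0.301). Gata1 differed by -1.55 and was called (limma adjusted p = 0.0248). A gene more than 2-fold lower in the KO can therefore go uncalled. The 95% interval of the difference lay wholly within 1 log2 unit of 0, a 2-fold change either way, for 27 of the 32 genes (84.4%), against 75.2% of all transcripts. It excluded a level 2-fold lower in the KO for 30 genes (93.8%), against 88.0% of all transcripts. Both counts include Tdrd6, whose intensities of 264 to 313 lay below the array medians. The 5 genes whose interval reached past 2-fold in either direction were Elavl2, Ybx2, Rnf17, Cpeb1 and Tex101. With 1 control array, each interval assumes that the control varies as the KO arrays do. No gene was at least 2-fold away from the control in every KO array, against 1.15% of all transcripts.

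**Figure D1:**
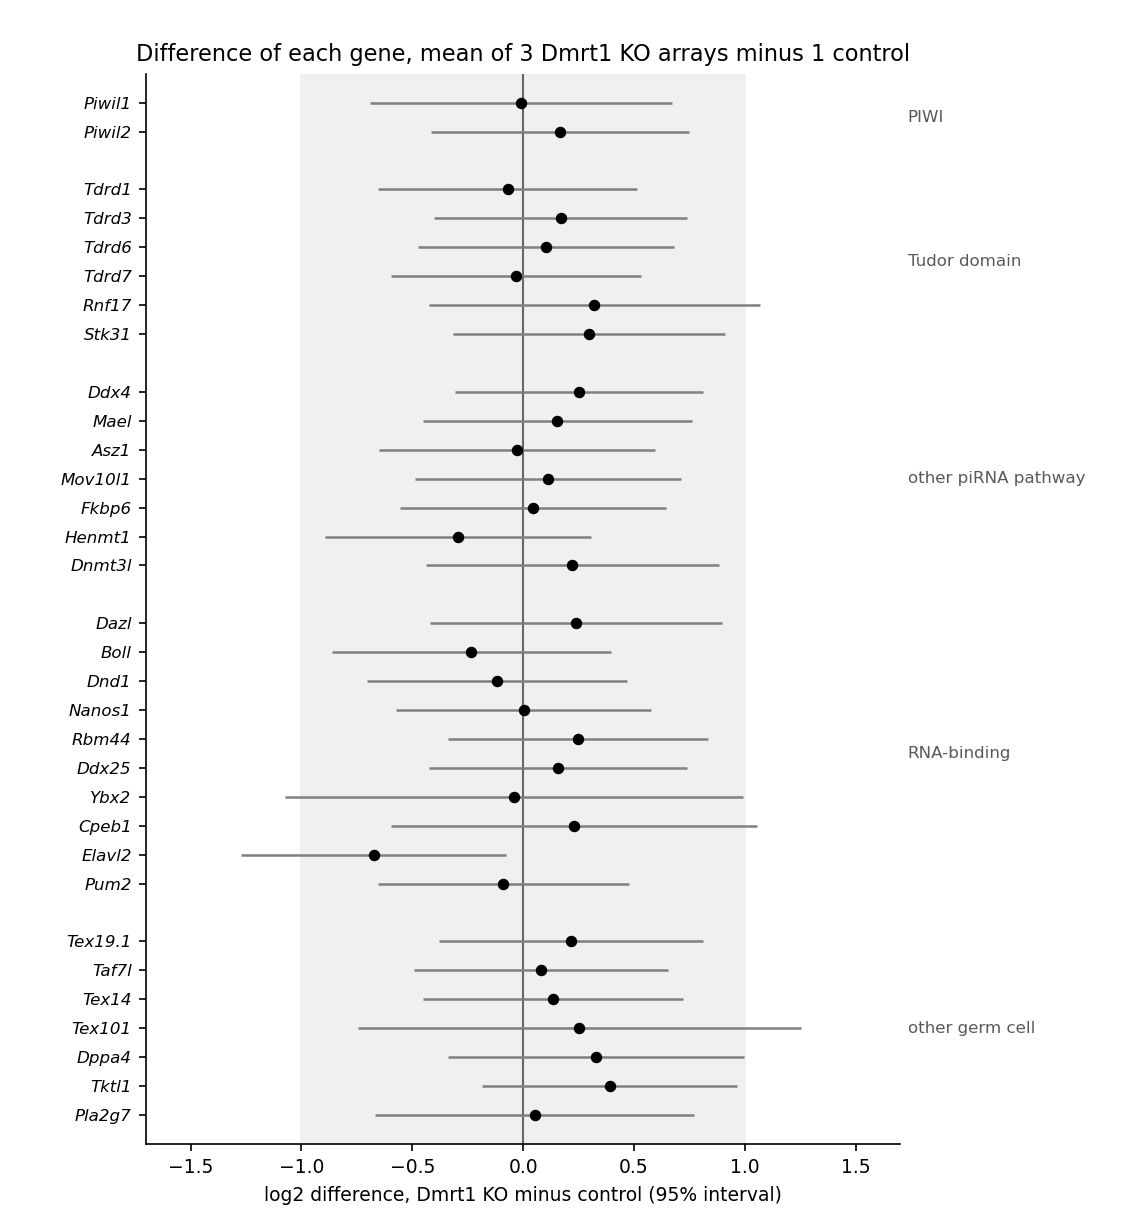
Difference in log2 intensity, mean of the 3 Dmrt1 KO arrays minus the 1 control array, for the 32 genes in 5 groups. Points are estimates, bars are 95% intervals of limma's moderated fit, and grey marks differences under 1 log2 unit. Only the bar of Elavl2 leaves out 0, and the bars of Elavl2, Ybx2, Rnf17, Cpeb1 and Tex101 reach past the grey band.

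All 3 KO arrays lay above the control in 12 genes (37.5%), against 25.6% of all transcripts, and below it in 4 (12.5%), against 24.1%. The other 16 genes had the control inside the range of the KO arrays. The 4 genes below were Elavl2, Henmt1, Boll and Pum2. With 2 KO arrays that had to lie on that side, the count below was 8 without KO replicate 1 (25%, against 31.3% of all transcripts), 4 without KO replicate 2 (12.5%, against 32.2%) and 7 without KO replicate 3 (21.9%, against 34.5%). The counts above were 13 (40.6%, against 33.3%), 17 (53.1%, against 32.6%) and 15 (46.9%, against 35.6%) in the same order.

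**Figure D2:**
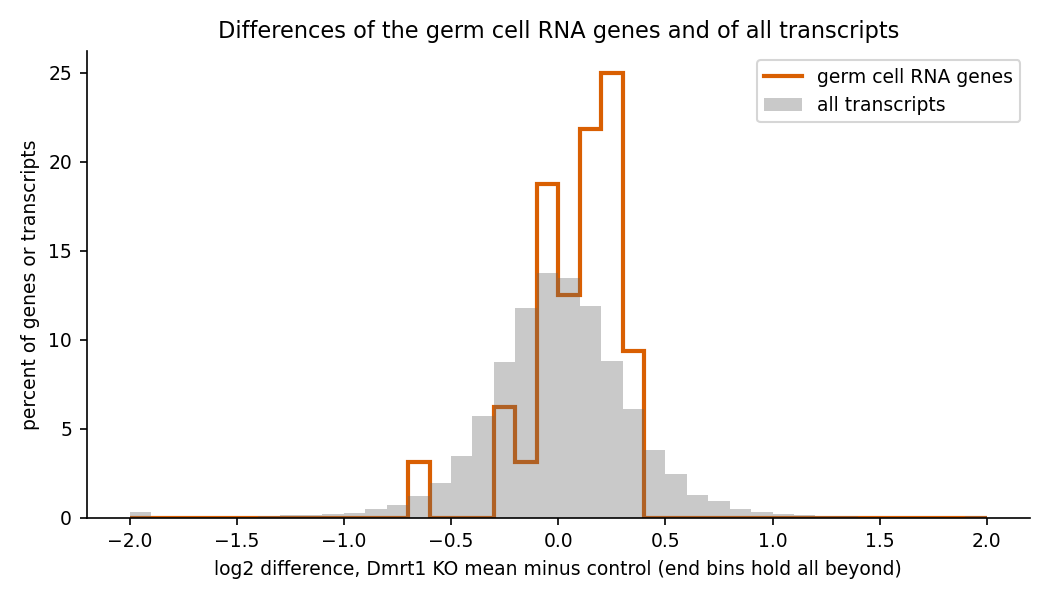
Share, in percent, of the 32 germ cell RNA genes (line) and of all 25631 transcripts (grey) in bins of the log2 difference, Dmrt1 KO mean minus control. The genes lie between -0.67 and 0.39, with a median of 0.12 against 0.0043 for all transcripts.

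In both PIWI genes that were matched, the KO array farthest from the control differed from it by 0.38 (Piwil1) and 0.27 (Piwil2) log2 units. Piwil2, which encodes MILI, a PIWI protein of fetal and postnatal germ cells, had intensities of 9907, 8213 and 9631 in the KO arrays and 8209 in the control on the linear scale. KO replicate 2 was nearly level with the control and the other KO arrays were slightly higher (log2 difference 0.17, 95% interval -0.41 to 0.75). Piwil1, which encodes MIWI, the PIWI protein of pachytene spermatocytes and spermatids, had log2 intensities of 9.83, 9.86 and 10.43 in the KO arrays and 10.05 in the control. The control lay between KO replicate 3 and the other KO arrays (difference -0.0091, interval -0.69 to 0.67).

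The 6 Tudor domain genes differed by -0.07 to 0.32. Tdrd1, a scaffold that binds MILI, had 13.91, 13.64 and 13.91 in the KO arrays and 13.89 in the control, so that only KO replicate 2 stood apart. A further Tdrd1 transcript had 13.04, 13.12 and 13.23 in the KO arrays and 13.04 in the control, and the estimates of these transcripts were -0.07 and 0.09. Stk31, a protein with a Tudor and a kinase domain, had 13.50, 13.06 and 13.23 in the KO arrays and 12.96 in the control, with all KO arrays above (difference 0.30 ± 0.28 SE). Tdrd3, a methylarginine reader that is not restricted to germ cells, had 12.60, 12.63 and 12.43 in the KO arrays and 12.38 in the control (difference 0.17 ± 0.26). Tdrd6 and Tdrd7, both proteins of the chromatoid body of spermatids, differed by 0.10 and -0.03. Tdrd6 had intensities of 264 to 313, below the array medians of 1005 to 1011. How far it lay above background is not known, so its difference cannot tell a lack of change from a lack of signal.

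Among the 7 further piRNA pathway genes the differences ran from -0.29 to 0.25. Ddx4, the VASA helicase found in germ cells of nearly all stages, had 14.67, 14.68 and 14.58 in the KO arrays and 14.39 in the control. Its KO arrays spanned 0.09 log2 units, the narrowest range of the 32 genes, and all lay above the control (difference 0.25 ± 0.25 SE, interval -0.31 to 0.81, limma adjusted p = 0.996). Mael, a germ granule protein needed for transposon silencing, had 14.53, 14.52 and 14.88 in the KO arrays and 14.49 in the control. Here KO replicate 3 was the highest, and the other KO arrays were nearly level with the control (difference 0.15, interval -0.45 to 0.76).

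Dnmt3l, the cofactor of de novo DNA methylation in fetal male germ cells, had 9.92, 9.98 and 10.48 in the KO arrays and 9.90 in the control, again with KO replicate 3 highest (difference 0.22 ± 0.30). Henmt1, the enzyme that methylates the 3′ end of piRNAs, had 11.54, 11.41 and 11.80 in the KO arrays and 11.88 in the control. All KO arrays lay below the control, KO replicate 3 by the least (difference -0.29, interval -0.89 to 0.31). Mov10l1, a helicase that binds piRNA precursors, Fkbp6, an immunophilin of the pathway, and Asz1, an outer mitochondrial membrane protein, differed by 0.11, 0.04 and -0.03.

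The 10 RNA-binding genes held both the lowest difference and the widest spread between KO arrays. Elavl2, an RNA-binding protein of neurons and germ cells, had 10.99, 10.63 and 10.86 in the KO arrays and 11.50 in the control. Every KO array lay below the control, by 0.51 to 0.87, and the estimate was a level 1.6-fold lower in the KO (difference -0.67 ± 0.27 SE, interval -1.27 to -0.08). It did not pass over all transcripts (limma, adjusted p = 0.665, unadjusted p = 0.0303). Its adjusted p was at or above 0.504 under every alternative run.

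Dazl, a translation regulator that germ cells need for entry into meiosis, had 15.00, 14.48 and 14.45 in the KO arrays and 14.41 in the control. KO replicate 1 stood above the other 3 arrays, which lay within 0.08 of each other (difference 0.24, interval -0.42 to 0.90). Rbm44, an RNA-binding protein of germ cells, had 9.85, 9.55 and 9.79 in the KO arrays and 9.48 in the control (difference 0.25 ± 0.26). Boll, a DAZ family member of spermatocytes, differed by -0.23, Dnd1, a partner of NANOS proteins, by -0.12 and Pum2, a repressor of translation in many cell types, by -0.09. Nanos1, a translational repressor, differed by 0.0022 and Ddx25, a testis helicase, by 0.16.

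The 7 other germ cell genes all had differences above 0, from 0.05 to 0.39. Tktl1, an X-linked transketolase-like gene, had 13.64, 13.76 and 13.52 in the KO arrays and 13.25 in the control, with every KO array above (difference 0.39, interval -0.18 to 0.97, limma adjusted p = 0.957). Taf7l, a TFIID subunit of germ cells and also X-linked, differed by 0.08. Dppa4, a chromatin protein of pluripotent cells, had 10.27, 10.28 and 10.83 in the KO arrays and 10.14 in the control. A further Dppa4 transcript had 9.97, 9.58 and 10.94 in the KO arrays and 10.14 in the control, so KO replicate 3 was the highest on both (differences of 0.33 and 0.02). Tex19.1, which acts in transposon control, Tex14, a protein of the bridges between germ cells, and Pla2g7, a phospholipase, differed by 0.22, 0.13 and 0.05.

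**Figure D3:**
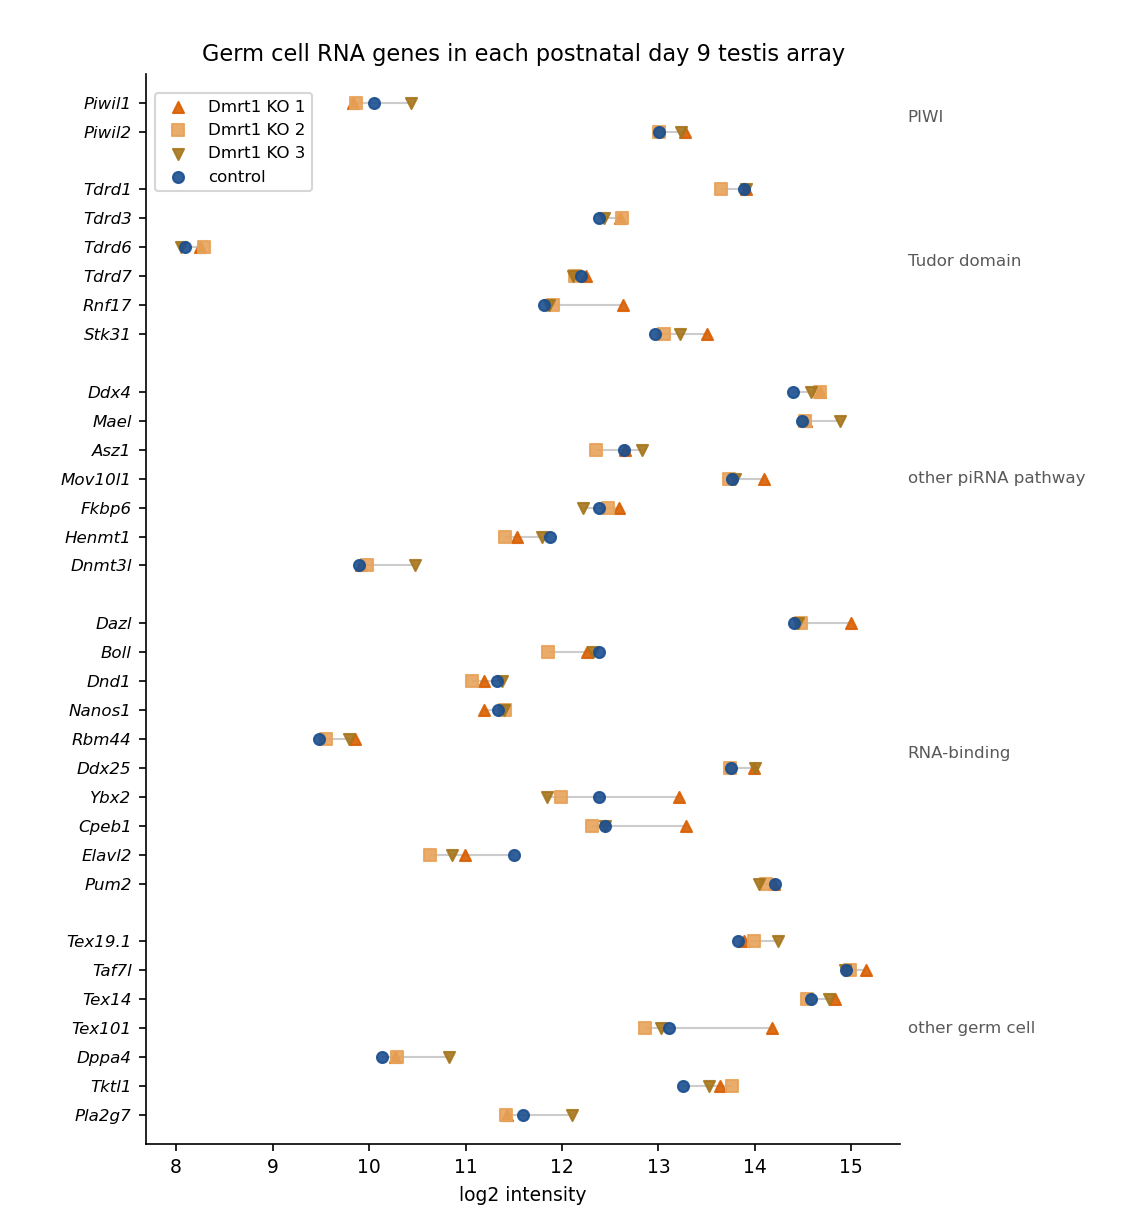
Log2 intensity of each of the 32 genes in the 3 Dmrt1 KO arrays (triangle, square, inverted triangle) and the control array (circle), grouped by role. Each row is to be read along itself. KO replicate 1 lies well to the right of the other 3 arrays for Ybx2, Cpeb1, Tex101, Rnf17 and Dazl.

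In 5 genes KO replicate 1 stood apart from the other KO arrays, a pattern picked after the values were seen. Ybx2, Tex101, Cpeb1, Rnf17 and Dazl exceeded the mean of KO replicates 2 and 3 by over 0.5 log2 units in KO replicate 1, that is 5 of 32 genes (15.6%) against 6.25% of all transcripts. Over these genes the median difference from the control was 0.82 in KO replicate 1, -0.14 in KO replicate 2 and -0.0071 in KO replicate 3. The gap between KO replicate 1 and the other KO arrays in these medians follows from how the genes were picked. KO replicate 1 was the highest KO array in 15 of the 32 genes (46.9%), against 29.9% of all transcripts. Other lists of RNA genes were read in the same way. Among 20 relatives that most cells use, 3 passed the same excess (15%) and 10 were highest in KO replicate 1 (50%), with a median excess of 0.21 against 0.12 for the germ cell RNA genes. Cpeb4, a relative of Cpeb1, exceeded by 1.17, Ago1, an Argonaute protein, by 0.96 and Fmr1, an RNA-binding protein, by 0.53. Among 17 further piRNA pathway and germ cell RNA genes, 3 passed an excess of 0.5 (17.6%). Nanos2 and Nanos3 of the same list went the other way, with excesses of -0.66 and -0.65. In this list 5 genes were highest in KO replicate 1 (29.4%, against 29.9% of all transcripts), and the median excess was -0.12.

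Ybx2, which encodes MSY2, a protein that stores messages in meiotic and later germ cells, had 13.21, 11.98 and 11.84 in the KO arrays and 12.39 in the control. The control lay between KO replicate 1 and the other KO arrays (difference -0.04, interval -1.07 to 0.99). Tex101, a surface protein of germ cells, had 14.18, 12.86 and 13.03 in the KO arrays and 13.10 in the control, and only KO replicate 1 was above the control (difference 0.25, interval -0.74 to 1.25). Cpeb1, a regulator of poly(A) tail length that acts in meiotic cells, had 13.29, 12.31 and 12.44 in the KO arrays and 12.45 in the control. Its KO replicates 2 and 3 were close to the control and KO replicate 1 was far above them (difference 0.23, interval -0.59 to 1.06). Rnf17, a Tudor domain protein of germ cell granules, had 12.63, 11.91 and 11.86 in the KO arrays and 11.81 in the control (difference 0.32, interval -0.43 to 1.07). Without KO replicate 1 the differences were -0.48 for Ybx2, -0.16 for Tex101, -0.07 for Cpeb1, 0.07 for Rnf17 and 0.06 for Dazl. That these values are lower than with all KO arrays also follows from how the genes were picked.

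Markers of spermatocytes moved with the same array. All 9 measured spermatocyte markers were highest in KO replicate 1 among the KO arrays, with a median excess of 0.65 over the mean of KO replicates 2 and 3 (range 0.40 to 1.56), against a median of -0.02 over all transcripts. The median difference of these markers from the control was 0.57 in KO replicate 1, 0.04 in KO replicate 2 and -0.32 in KO replicate 3. Dmc1, a recombinase of meiosis, had 12.02, 10.86 and 10.06 in the KO arrays and 10.56 in the control. Genes picked from other lists after their values were seen included Stra8, a gene of meiotic entry from the spermatogonia list, of whose 12 members only Stra8 passed an excess of 0.5. It had 12.11, 11.06 and 10.67 in the KO arrays and 11.21 in the control. Mybl1, a transcription factor of spermatocytes that activates piRNA loci, came from the further piRNA pathway list, whose median excess was -0.12. It had 9.70, 8.70 and 8.82 in the KO arrays and 9.09 in the control. In Dmc1, Stra8 and Mybl1, KO replicate 1 was above the control and at least 1 other KO array was below it.

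The other marker lists had lower medians in this measure. The median excess of KO replicate 1 was -0.04 over 12 spermatogonia markers, -0.06 over 12 spermatid markers and -0.05 over 11 Sertoli cell markers. The spermatid markers had intensities from 57 (Akap4, control) to 635 (Prm2, KO replicate 2), below the array medians of 1005 to 1011. How far they lay above background is not known, so their median cannot tell a lack of excess from a lack of signal. For the further lists the same median was read. The median excess was -0.31 over 6 macrophage, 0.06 over 5 endothelial and 0.09 over 5 myoid markers, and -0.04 over 8 housekeeping genes. It was -0.76 over 6 Leydig cell markers (range -1.18 to -0.17). limma called 0 of the 9 spermatocyte, 12 spermatogonia, 12 spermatid and 6 Leydig markers in the comparison of KO with control, against 0.655% of all transcripts. In that order, 0, 1, 0 and 1 markers had an unadjusted limma p under 0.05, against 6.42% of all transcripts. The median differences of these lists were 0.21, -0.00063, 0.0036 and 0.36. The part of the meiotic markers in the values of the 5 genes was not tested.

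**Figure D4:**
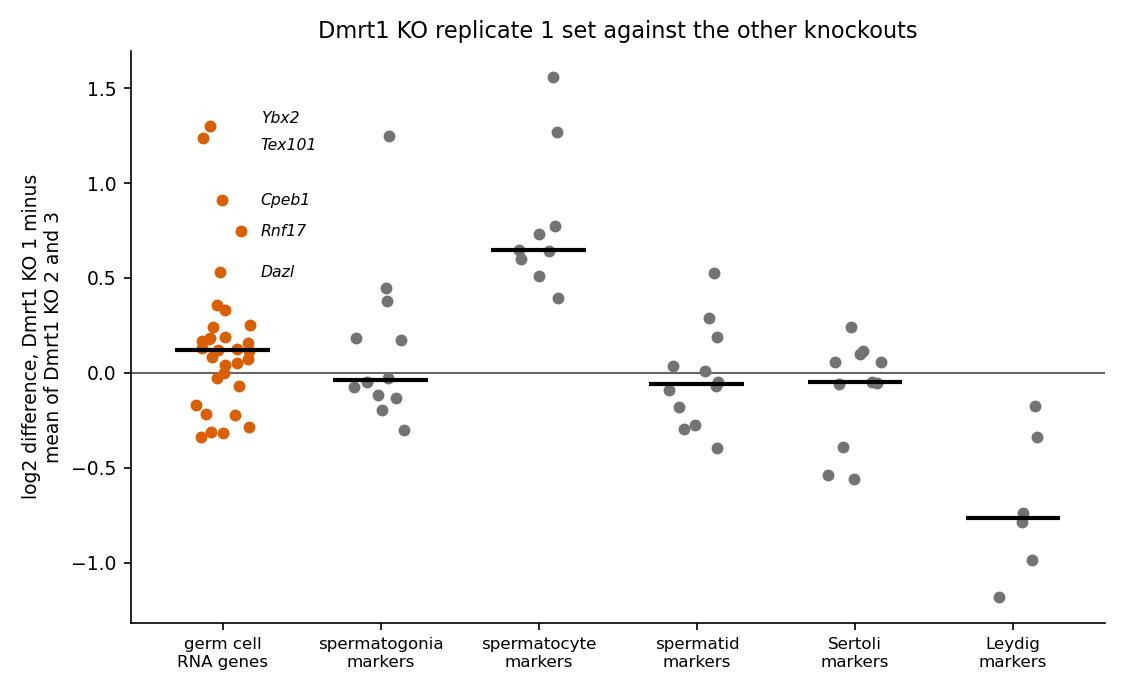
Log2 intensity in Dmrt1 KO replicate 1 minus the mean of KO replicates 2 and 3, for each germ cell RNA gene and for 5 lists of cell type markers. Each point is a gene, spread sideways for visibility, and black bars are medians. The 9 spermatocyte markers all lie above 0 and the 6 Leydig markers all below, and Ybx2, Tex101, Cpeb1, Rnf17 and Dazl lie above the other germ cell RNA genes.

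Many promoters of these genes were rich in CG dinucleotides, the sites of DNA methylation, a feature that the choice by name did not use. RefSeq promoter windows on build GRCm38.p6 were found for 26 of the 32 genes, and the 250 bases before the start were read. In 24 of these 26 genes (92.3%) a window held at least 10 CG dinucleotides, against 53.1% of 17492 protein-coding genes. Tktl1, with 9, and Dnmt3l, with 5 at most, were the exceptions. The median of the highest count per gene was 21.5, against 11 in protein-coding genes. A gene with more windows has more chances of a high count, and the 26 genes had 43 windows, against 21263 for the 17492 protein-coding genes. Over single windows the median counts were 18 and 10. Whether other genes active in the testis have like counts was not tested. Dazl, Cpeb1 and Tex101 are shown as genes high in KO replicate 1, and Ddx4 and Mael as genes that were not. All 5 lie on the minus strand, at chr17:50293621-50293870, chr7:81454759-81455008, chr7:24672051-24672300, chr13:112652311-112652560 and chr1:166238745-166238994 in that order. Each reads 5′ to 3′ along the gene up to the base before the start, with CG dinucleotides in capitals.
Dazl: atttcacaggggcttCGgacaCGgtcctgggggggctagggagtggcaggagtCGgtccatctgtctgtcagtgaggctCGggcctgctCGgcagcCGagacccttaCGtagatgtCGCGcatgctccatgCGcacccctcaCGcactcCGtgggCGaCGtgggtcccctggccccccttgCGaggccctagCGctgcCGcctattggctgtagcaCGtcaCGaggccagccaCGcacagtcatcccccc
Cpeb1: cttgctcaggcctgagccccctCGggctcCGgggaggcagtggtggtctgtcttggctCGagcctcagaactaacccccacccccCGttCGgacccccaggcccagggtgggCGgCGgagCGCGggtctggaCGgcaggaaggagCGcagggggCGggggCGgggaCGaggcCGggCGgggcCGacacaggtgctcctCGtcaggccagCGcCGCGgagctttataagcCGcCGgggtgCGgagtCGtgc
Tex101: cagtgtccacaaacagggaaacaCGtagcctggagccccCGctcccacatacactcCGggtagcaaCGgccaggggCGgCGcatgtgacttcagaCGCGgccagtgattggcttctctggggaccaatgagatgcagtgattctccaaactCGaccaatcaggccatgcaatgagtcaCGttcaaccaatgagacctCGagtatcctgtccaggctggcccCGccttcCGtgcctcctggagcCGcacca
Ddx4: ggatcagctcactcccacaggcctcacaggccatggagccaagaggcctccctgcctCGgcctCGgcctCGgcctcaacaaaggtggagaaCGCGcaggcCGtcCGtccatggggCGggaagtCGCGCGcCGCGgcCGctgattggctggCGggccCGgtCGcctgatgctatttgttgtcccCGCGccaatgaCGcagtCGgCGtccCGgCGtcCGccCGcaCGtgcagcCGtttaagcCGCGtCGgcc
Mael: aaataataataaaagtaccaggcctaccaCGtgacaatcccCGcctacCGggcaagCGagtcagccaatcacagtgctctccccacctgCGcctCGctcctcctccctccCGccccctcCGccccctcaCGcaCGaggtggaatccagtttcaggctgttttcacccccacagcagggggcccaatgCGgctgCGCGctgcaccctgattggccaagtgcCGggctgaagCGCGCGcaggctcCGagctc
The windows held 20 CG dinucleotides in Dazl, 25 in Cpeb1 and 14 in Tex101, and 31 in Ddx4 and 18 in Mael. Among these 5 genes the count did not separate those that were high in KO replicate 1. The genes shown each have a single window. Ybx2, with windows of 29 and 35, and Rnf17, without a window, were also high there and are not shown. The count was not compared in this way over all the genes. The letters GGCGGGA, an E2F site, occurred on either strand in 8 of the 43 windows of the genes (18.6%), those of Ddx4 and Mael included, against 12.9% of protein-coding windows. The letters ACANTGT, the core of the site that DMRT1 binds, occurred in 0 of the 43 windows, against 5.42% of protein-coding windows. The windows of the genes had a median of 64.0% G and C bases, against 55.6% in protein-coding windows. The part of this base content in the 2 motif shares was not tested. A gene can have several windows that overlap, and these matches describe letters only.

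No further gene of the same processes passed the test. Of 24 listed genes that act in the piRNA pathway or in germ cell RNA control and are outside the 32, 17 were measured. limma called 0 of the 17, against 0.655% of all transcripts, with 1 at an unadjusted p under 0.05, against 6.42%. The median difference was -0.03. Morc1, which represses transposons in male germ cells, had 12.64, 12.72 and 13.17 in the KO arrays and 12.08 in the control. Every KO array was above the control (difference 0.76 ± 0.29 SE, limma adjusted p = 0.621). Exd1, a partner of TDRD12 in piRNA production, was lower in every KO array (difference -0.48 ± 0.26), and Lin28a, a repressor of let-7 in undifferentiated germ cells, differed by 0.32 ± 0.26.

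The relatives of these genes that most cells use showed a median difference of -0.0049 over 20 measured genes. limma called 0 of 20, against 0.655% of all transcripts, with 0 at an unadjusted p under 0.05, against 6.42%. Dgcr8 and Xpo5, which act in microRNA processing and export, differed by 0.41 ± 0.28 and 0.37 ± 0.26, and Ago2, the microRNA-guided nuclease, by -0.34 ± 0.25. Elavl1, the widely expressed relative of Elavl2, had 13.62, 13.79 and 14.09 in the KO arrays and 13.78 in the control, which lay inside the KO range (difference 0.05 ± 0.28 SE).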

How the data were processed

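RNA of whole testes at postnatal day 9 was hybridised to one-colour NimbleGen 60mer arrays, per the labels' protocols, with 3 Dmrt1 KO arrays and 1 control array. The deposited table gives 1 intensity on a linear scale for each RefSeq transcript and array. Per the submitters' processing notes it came from RMA, which corrects background and normalises between arrays. The RMA version and settings are not given in the sources used here, and no transcript could be called below background. Log2 was taken with nothing added. Accessions without version were matched to a RefSeq table of GRCm38.p6, which named 17780 of 25631 transcripts (69.4%), and the transcript with the highest mean stood for a gene. limma 3.58.1 in R 4.3.3 (lmFit, eBayes, two-sided) was fitted to all transcripts with Benjamini-Hochberg adjustment. The fit has 2 residual degrees of freedom, all from the KO arrays, plus 7.97 from the prior. It was also run on simulated arrays in which the control varied as the KO arrays did. Such a run cannot test that assumption, and its outcome is not given here. The number of arrays limits the precision. The 32 genes and all lists were chosen with earlier results of these data known. The text gives in full Ddx4, Dazl, Piwil2, Mael, Tdrd1 and Dnmt3l, genes with an unadjusted p under 0.05 and all KO arrays on one side, and the 3 largest differences per group; from the other lists of RNA genes it names the 3 with the smallest p. Piwil4 was in that rule and was not analysed here. Genes outside the rule are named for their role or said to be picked after their values were seen. The alternatives left out each KO array, normalised or centred again, removed dim transcripts, averaged transcripts, changed the prior or threshold, or added 50 to the intensities.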

Additional observations from a re-analysis of the deposited data

How the results depend on the processing

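No paired analysis was possible because the columns carry no pairing and there was 1 control array, which every alternative kept. limma called 0 of the 32 germ cell RNA genes under every alternative run, against 0.655% of all transcripts in the main fit. The number at an unadjusted p under 0.05 was 0 or 1, against 6.42% of all transcripts in the main fit. At least 2-fold away in every KO array were 0 of the 32 genes, against 1.15% of all transcripts with all arrays. The median difference of the 32 genes kept its sign, at 0.07 to 0.17 when each KO array was left out. On leaving out an array, the number below the control in both other KO arrays was 4 to 8 (12.5% to 25%, against 31.3% to 34.5% of all transcripts) and the number above 13 to 17 (40.6% to 53.1%, against 32.6% to 35.6%). Over all transcripts, 40 were called higher and 128 lower. The higher calls were 58 to 62 on leaving out an array, 69 with an intensity trend, 75 at an adjusted p under 0.1, and 0 without variance shrinkage, where the lower calls were also 0 (1440 at an unadjusted p under 0.05). Centring the arrays set the median of all transcripts at 0.0116, against 0.0043. Normalising or centring again or adding 50 to the intensities turned the sign of 0 of the 32 genes, and averaging transcripts, which could move only Tdrd1 and Dppa4, set Tdrd1 at 0.012. On leaving out an array, 9 genes changed sign, with ranges of -0.20 to 0.10 for Piwil1, -0.11 to 0.017 for Tdrd1, -0.14 to 0.10 for Asz1, -0.036 to 0.15 for Fkbp6, -0.037 to 0.074 for Nanos1, -0.48 to 0.21 for Ybx2, -0.072 to 0.41 for Cpeb1, -0.16 to 0.50 for Tex101 and -0.18 to 0.17 for Pla2g7. The cause was not tested. How far dim transcripts lay above background is not known.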
